A study of Mus musculus with 4 samples.

Results

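Iron handling in mouse bone marrow was described through 9 genes for iron uptake, storage, transport into mitochondria, release from heme and export. They were taken by symbol from the list of 32544 genes of the deposited tables, and all 9 were found there. The genes were Tfrc, Slc11a2, Steap3, Slc25a37, Fth1, Ftl1, Hmox1, Slc11a1 and Slc40a1. They were chosen by their role in iron handling and on a measured value of these data, that Slc40a1 UMIs were higher in both YAP1 heterozygote libraries over all cells. Values over all cells, and every value of Slc40a1, are therefore given as a description with no test. The measurements were single-cell RNA counts at the 3′ end of transcripts from flow-sorted nucleated marrow cells of mice 10 weeks old. The series is about YAP1 in platelet formation, and iron handling is not its stated subject. There were 2 libraries from WT mice and 2 from mice labelled YAP1 heterozygote, and the labels do not say how the allele was made, which gates were used for the sort or whether the libraries of a group came from separate mice. Replicate 1 of each genotype carried Ddx3y transcripts (100.3 and 67.8 CPM) and almost no Xist (0.128 and 0.0851 CPM), and replicate 2 the reverse, so the libraries of 1 genotype did not share a mouse. CPM, the usual depth-scaled count, are a gene's UMIs (unique molecular identifiers, each standing for 1 captured RNA molecule) relative to the total UMIs of the cells named. The libraries held between 112806900 and 119855112 UMIs over all deposited barcodes. Between 10570 and 13220 cells were kept, with 105737268 to 111303132 UMIs, and any pair of libraries shared between 21 and 55 cell barcodes. Yap1 itself gave 6 and 7 UMIs in WT and 0 and 6 in YAP1 heterozygote marrow, and such a 3′ count does not check the genotype.

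Cells take up iron bound to transferrin through the transferrin receptor (Tfrc). In the endosome a Steap reductase such as Steap3 reduces the iron, Slc11a2 (DMT1) carries it into the cytosol, and mitoferrin 1 (Slc25a37) moves it into mitochondria for heme synthesis in developing red cells. Macrophages of marrow, spleen and liver clear aged red cells, open their heme with heme oxygenase 1 (Hmox1), store iron in ferritin, whose heavy and light chains are Fth1 and Ftl1, and return it to plasma through ferroportin (Slc40a1), the iron exporter of mammalian cells. Slc11a1 (NRAMP1) is a metal transporter of the phagosome membrane in phagocytes. Iron regulatory proteins bind a short RNA hairpin, the iron-responsive element, which blocks translation from a 5′ UTR and protects the transcript from decay in a 3′ UTR.

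Of the 9 genes, 4 held the letters of such an element in the UTRs of their longest coding transcript, with CNNNNNCAGTGN on the transcript strand and a paired stem on both sides of the loop. They are shown because their position separates uptake from storage and export: in the 3′ UTR of Tfrc they occurred 4 times, and in the 5′ UTRs of Fth1, Ftl1 and Slc40a1 once each. All are from GRCm38 with GENCODE release M21, written 5′ to 3′ as DNA on the transcript strand, with the 6 loop bases in capitals.
Tfrc element 1, chr16:32631219-32631248, plus strand: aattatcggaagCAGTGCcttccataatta
Tfrc element 2, chr16:32631598-32631627, plus strand: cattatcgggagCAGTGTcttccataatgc
Tfrc element 3, chr16:32631663-32631692, plus strand: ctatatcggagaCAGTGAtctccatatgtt
Tfrc element 4, chr16:32631710-32631739, plus strand: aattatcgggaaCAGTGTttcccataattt
Fth1, chr19:9982732-9982761, plus strand: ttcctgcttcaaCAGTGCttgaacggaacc
Ftl1, chr7:45459778-45459807, minus strand: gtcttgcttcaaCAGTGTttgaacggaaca
Slc40a1, chr1:45925464-45925493, minus strand: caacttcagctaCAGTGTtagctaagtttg
Of 21767 genes searched in the same way, 21 (0.0965%) held a match in the 5′ UTR and 117 (0.538%) in the 3′ UTR. A match is a description of the letters and not a test of binding, and no match in the other members says only that these letters are not in the window searched. RNA counts do not measure the translation that these elements control.

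The classes were rebuilt from clusters with the 9 genes and 50 other iron genes left out of the clustering, so the levels below did not define them. Erythroid cells fell into 1 cluster of progenitors, which expressed all 10 progenitor markers such as Klf1, Gata1 and Car1, and 1 small cluster of hemoglobin-rich erythroblasts. The erythroid progenitor-like cells numbered 144 and 441 in WT and 232 and 457 in YAP1 heterozygote marrow. The erythroblast-like cells numbered 14, 76, 40 and 113 in the same order, too few in WT replicate 1 for a test. Their cluster had a median of 388 genes per cell. Classes set by the markers found in each cell gave 46, 212, 96 and 252 erythroblast-like cells instead. The 10 erythroblast markers made up 49.7% to 65.0% of the UMIs of the clustered erythroblast-like cells, against 2.42% to 3.55% in erythroid progenitor-like cells. CPM of all other genes in erythroblast-like cells are lowered by that share of the total. The macrophage-like cluster numbered 67, 55, 101 and 185 cells and held UMIs of all 11 macrophage markers, among them C1qa, Vcam1 and Cd5l, in every library. Macrophage-like cells were shallow, with medians of 1620, 1110, 1747 and 2488 UMIs per cell, and carried transcripts of other cells. The 10 mature neutrophil markers made up 16.3%, 8.30%, 14.0% and 14.5% of their UMIs, against 33.9% to 35.2% in mature neutrophil-like cells. The 10 erythroblast markers made up 0.0603% and 0.0357% in WT and 0.434% and 1.01% in YAP1 heterozygote marrow, and Alas2 was at 0 in both WT libraries. The part of these transcripts in the levels below was not tested. Neutrophils formed 3 precursor-like and 6 mature clusters, with 1488 to 1792 and 3490 to 4197 cells per library.

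Tfrc (chr16:32608920-32632794 of GRCm38, plus strand), the receptor through which red cell precursors draw their iron, had its highest CPM in erythroid progenitor-like cells. It reached 612 and 663 CPM there in WT and 581 and 648 CPM in YAP1 heterozygote marrow. All 4 values lay within a narrow band, with a mean of 626 ± 37.1 CPM (SD, n = 4). Erythroblast-like cells followed with 464 ± 149 CPM (SD, n = 4), and these ranges overlapped, since WT replicate 2 gave 645 CPM in erythroblast-like cells. Erythroblast markers fill 49.7% to 65.0% of the total in erythroblast-like cells, and the part of this in the order was not tested. Plasmacytoid dendritic-like cells came next with 314 ± 28.9 CPM and B precursor-like cells with 178 ± 32.5 CPM (SD, n = 4). Macrophage-like cells held 124 ± 27.6 CPM (SD, n = 4). Tfrc was lower at each step of the neutrophil classes, from 64.4 CPM in granulocyte-monocyte progenitor-like cells through 28.4 CPM in neutrophil precursor-like cells to 6.0 CPM in mature neutrophil-like cells (means of 4 libraries).

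Steap3 (chr1:120190757-120272705, minus strand) and Slc11a2 (chr15:100387898-100425072, minus strand), the reductase and the transporter that act after the receptor, had their highest levels in the same class. Steap3 gave 92.2 and 102 CPM in erythroid progenitor-like cells of the WT libraries and 113 and 101 CPM in those of the YAP1 heterozygote libraries. In erythroblast-like cells Steap3 was at 0 UMIs in both WT libraries and averaged 1.80 CPM, and in mature neutrophil-like cells it averaged 0.167 CPM. Slc11a2 gave 63.2, 54.6, 55.2 and 54.2 CPM in erythroid progenitor-like cells and averaged 9.78 ± 7.18 CPM in erythroblast-like cells (SD, n = 4). Both transcripts thus had lower CPM in this cluster of hemoglobin-rich erythroblasts, while T cell-like and B precursor-like cells kept Slc11a2 at 29.8 and 29.6 CPM. An order between the erythroid classes can depend on the class rule, as given for Fth1 below. Mature neutrophil-like cells held 0.284 CPM of Slc11a2, and the lowest library held 0.148 CPM, from 3 UMIs.

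Slc25a37 (chr14:69241848-69285112, minus strand), the mitochondrial importer, had the opposite order between the erythroid classes. It reached 1379, 1246, 933 and 840 CPM in erythroblast-like cells, and 291, 283, 224 and 273 CPM in erythroid progenitor-like cells. Every erythroblast-like value lay above every progenitor value. B cell-like cells held 75.5 ± 2.39 CPM and mature neutrophil-like cells 52.9 ± 1.68 CPM (SD, n = 4). The range over the other classes with at least 10 cells in each library was 6.28 CPM in plasma cell-like cells to 47.3 CPM in macrophage-like cells.

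**Figure D1:**
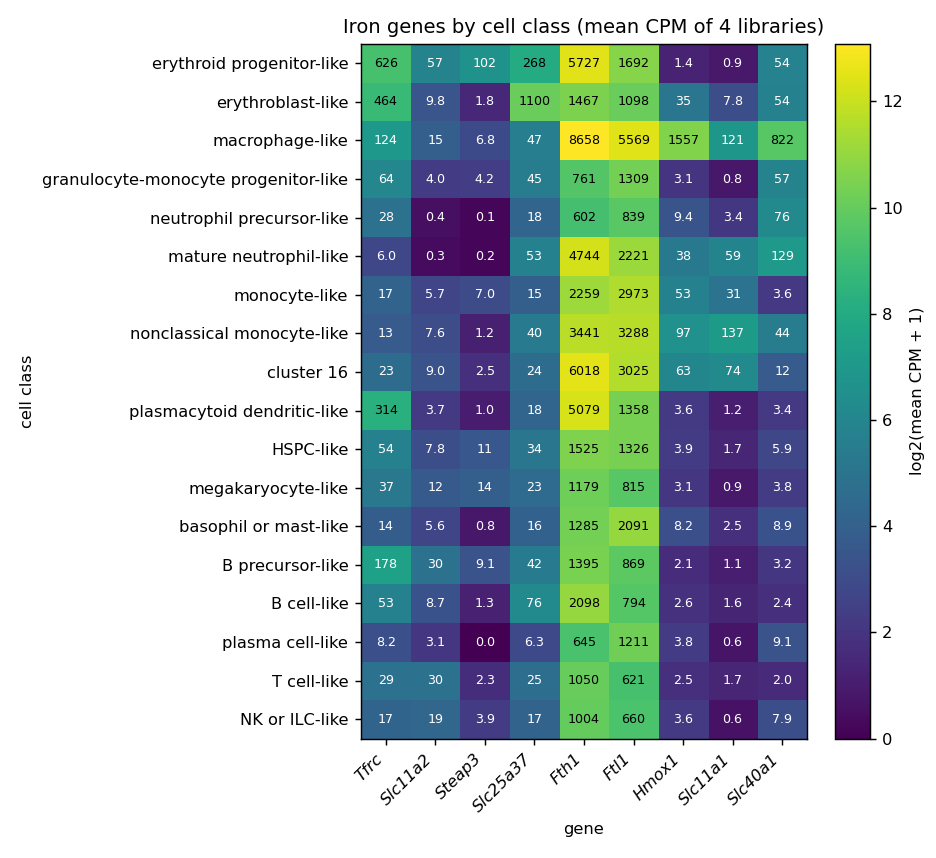
Mean CPM over 4 libraries of each gene (columns, ordered from uptake to export) in each cell class (rows), coloured by log2(mean CPM + 1), with the mean printed in each cell. Tfrc, Slc11a2 and Steap3 were highest in erythroid progenitor-like cells, Slc25a37 in erythroblast-like cells, Slc11a1 in nonclassical monocyte-like cells, and Fth1, Ftl1, Hmox1 and Slc40a1 in macrophage-like cells.

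The ferritin chains Fth1 (chr19:9980598-9985098, plus strand) and Ftl1 (chr7:45457944-45459884, minus strand) were found in every class and were highest in macrophage-like cells. Fth1 gave 7416 and 11815 CPM there in WT and 8111 and 7291 CPM in YAP1 heterozygote marrow. WT replicate 2 stood above the other 3 libraries, and the mean was 8658 ± 2135 CPM (SD, n = 4). The next levels of Fth1 were 6018 ± 1574 CPM in cluster 16, which stayed unnamed because it mixed dendritic and macrophage markers, 5727 ± 451 CPM in erythroid progenitor-like cells, 5079 ± 331 CPM in plasmacytoid dendritic-like cells and 4744 ± 646 CPM in mature neutrophil-like cells (SD, n = 4); neighbours in this order overlapped within their spread. Erythroblast-like cells held 1467 ± 325 CPM and neutrophil precursor-like cells 602 ± 55.3 CPM (SD, n = 4). The erythroblast-like level of Fth1 depended on the class rule. With classes from markers per cell it was 6842 CPM, above the 4618 CPM of erythroid progenitor-like cells under that rule. Ftl1 gave 4563, 8110, 5302 and 4299 CPM in macrophage-like cells and was next in nonclassical monocyte-like (3288 CPM), cluster 16 (3025 CPM), monocyte-like (2973 CPM) and mature neutrophil-like cells (2221 CPM). Erythroid progenitor-like cells held 1692 ± 163 CPM of Ftl1 (SD, n = 4). The processed copy Ftl1-ps1 was listed beside Ftl1 at 16.4 to 20.1 CPM over all cells, and reads that fit both cannot be assigned with certainty.

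Hmox1 (chr8:75093621-75100589, plus strand), which opens the heme ring, was concentrated in macrophage-like cells at 2526, 1138, 1083 and 1481 CPM. The mean of 1557 ± 669 CPM (SD, n = 4) compared with 97.3 CPM in nonclassical monocyte-like, 63.1 CPM in cluster 16, 53.5 CPM in monocyte-like and 37.5 CPM in mature neutrophil-like cells. WT replicate 1 was the highest library, and its single richest cell held 76 of its 440 Hmox1 UMIs. In erythroid progenitor-like cells Hmox1 averaged 1.45 CPM. Slc11a1 (chr1:74375195-74386062, plus strand), the phagosome transporter, was highest in nonclassical monocyte-like cells at 137 ± 20.7 CPM, close to macrophage-like cells at 121 ± 13.2 CPM (SD, n = 4), and these ranges overlapped. Mature neutrophil-like cells held 59.4 ± 6.11 CPM of Slc11a1 and neutrophil precursor-like cells 3.39 ± 0.491 CPM (SD, n = 4). Erythroid progenitor-like cells held 0.860 CPM.

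Slc40a1 (chr1:45908068-45926523, minus strand), the exporter, was highest in macrophage-like cells. It gave 1160 and 817 CPM there in WT and 639 and 672 CPM in YAP1 heterozygote marrow, with a mean of 822 ± 238 CPM (SD, n = 4). The single richest cell held 17.3% and 12.6% of these UMIs in WT and 6.64% and 6.93% in YAP1 heterozygote marrow. The neutrophil lineage came next: mature neutrophil-like cells held 129 ± 16.6 CPM, neutrophil precursor-like cells 76.4 ± 2.94 CPM and granulocyte-monocyte progenitor-like cells 57.2 ± 3.51 CPM (SD, n = 4). The first of these did not overlap with the others. Erythroid progenitor-like cells held 53.9 ± 2.33 CPM (SD, n = 4), which overlapped with granulocyte-monocyte progenitor-like cells. Erythroblast-like cells gave 85.3, 10.7, 88.7 and 29.7 CPM, from 6, 4, 21 and 20 UMIs, so their level was not resolved at this depth. B cell-like cells held 2.42 CPM. The stromal or endothelial-like class held only 2 to 7 cells per library and is left out of these orders. Monocyte-like cells held 3.57 ± 0.532 CPM and nonclassical monocyte-like cells 43.5 ± 8.04 CPM (SD, n = 4).

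**Figure D2:**
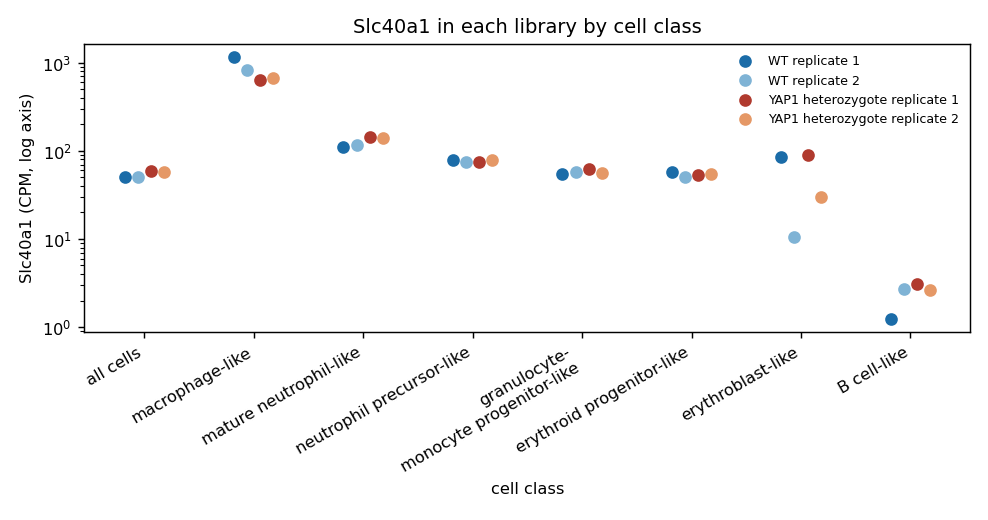
Slc40a1 in CPM on a log axis for all cells and for 7 cell classes, 1 point per library. The macrophage-like points lie between 639 and 1160 CPM, with both WT libraries above both YAP1 heterozygote libraries, while in mature neutrophil-like cells both YAP1 heterozygote libraries lie above both WT libraries.

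Shares of cells with a Slc40a1 UMI were taken after every cell was cut to 2000 UMIs, which leaves out shallower cells. Such a UMI was found in 41.4%, 57.1%, 59.6% and 49.0% of macrophage-like cells (12 of 29, 12 of 21, 28 of 47 and 50 of 102 cells). The shares were 18.4%, 20.7%, 23.9% and 23.6% of mature neutrophil-like cells, from 3296 to 3794 cells per library. The thinned shares were 8.80% to 11.6% of erythroid progenitor-like cells. B cell-like cells, taken as a class that should lack the exporter, gave 0.210%, 0.241%, 0.681% and 0.442%, with median depths before thinning of 2507 to 2999 UMIs against 4083 to 5000 UMIs in mature neutrophil-like cells. Without thinning, the mature neutrophil-like share was 36.1% and 41.1% in WT and 47.4% and 43.8% in YAP1 heterozygote marrow.

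Within the mature neutrophil-like class the iron genes differed in their pattern. The 6 clusters were ordered by their content of neutrophil precursor markers, from 7.59% of UMIs in cluster 17 to 0.176% in cluster 0, while Il1b, an inflammatory cytokine of mature neutrophils, went from 11.4 to 4625 CPM between these ends. Fth1 went from 1840 CPM in cluster 17 to 10038 CPM in cluster 0, Ftl1 from 1204 to 4399 CPM, Slc11a1 from 29.7 to 98.0 CPM and Hmox1 from 13.6 to 93.8 CPM (means of 4 libraries). Slc40a1 was nearly level over the first clusters, at 111, 125, 112, 134 and 113 CPM in clusters 17, 14, 8, 2 and 1, and stood at 235 CPM in cluster 0. Cluster 2 was mostly 1 library: WT replicate 1 gave 1358 of its 1538 cells, so its values in the other libraries rest on 24 to 125 cells. Clusters were formed from the same cells, so these levels are a description.

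**Figure D3:**
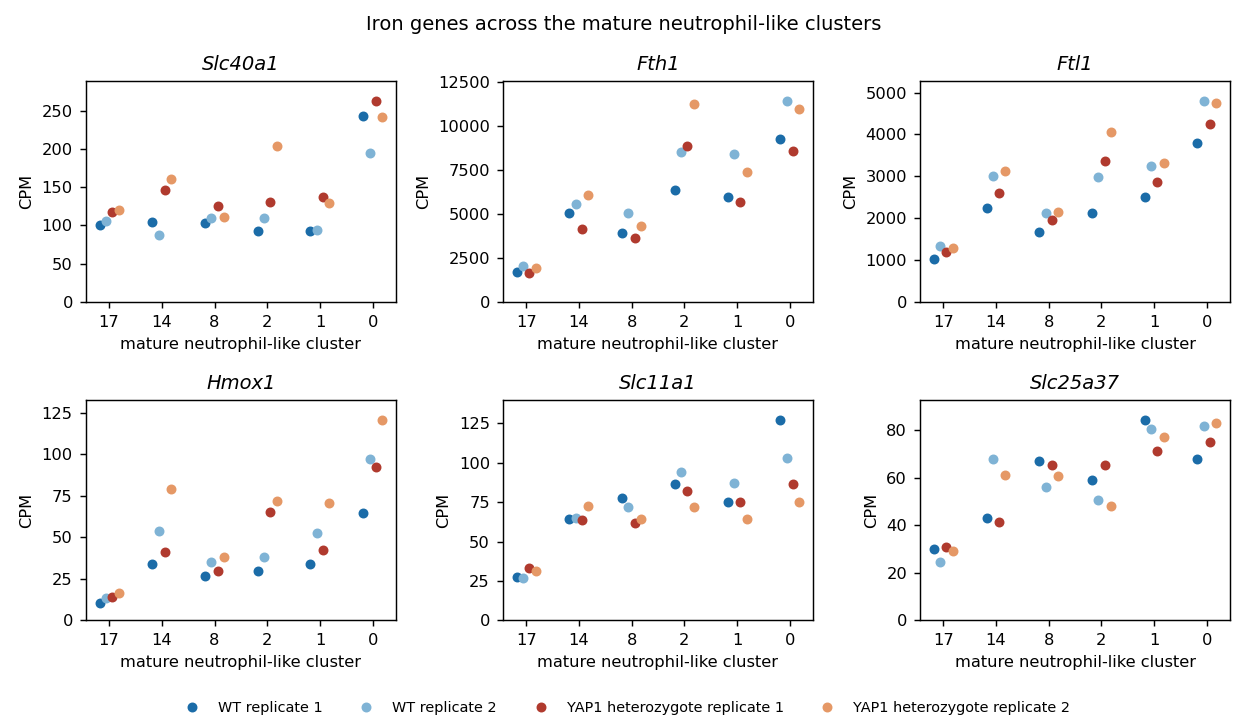
CPM of 6 iron genes in the 6 mature neutrophil-like clusters, 1 point per library, with clusters ordered from the highest to the lowest content of precursor markers. Fth1, Ftl1, Hmox1 and Slc11a1 end above their start in every library, and Slc40a1 is highest in cluster 0 in each library.

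For each member the genes with the most alike pattern were taken over 68 sums (17 classes in 4 libraries), on log2(CPM + 1). The sums of 1 library share its depth and handling, so the coefficients are a description. Slc40a1 was most like Mpzl1 (Pearson r = 0.82), Tinagl1 (r = 0.81) and S100a9 (r = 0.80), the last a calcium-binding protein that neutrophils hold in bulk. Slc11a1 was most like Tlr8 (r = 0.96), Pla2g7 (r = 0.95) and Clec4n (r = 0.94). Hmox1 was most like Clec4n (r = 0.91), Adgre1 (r = 0.91), which encodes the macrophage antigen F4/80, and Tlr8 (r = 0.90). Ftl1 was most like its own copy Ftl1-ps1 (r = 0.94), then Clec4n and Adgre1. Fth1 was most like Epn1 (r = 0.86), Picalm (r = 0.84) and Irf9 (r = 0.78). Tfrc was most like Acp1, Slc25a51 and Usp7 (r = 0.78, 0.77 and 0.77), Slc11a2 like Fam78a, Zbtb1 and Marchf5 (r = 0.84 each), Slc25a37 like Atg4b, Trak2 and Nxpe2 (r = 0.74, 0.73 and 0.72), and Steap3 like Pdap1, Ptdss2 and Bag1 (r = 0.85 each). Among the members, the highest coefficient was that of Hmox1 with Slc11a1 (r = 0.90), and Slc40a1 reached 0.63 with Hmox1 and 0.06 with Tfrc.

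Over all cells, the values that led to the choice of the genes were 50.3 and 49.9 CPM of Slc40a1 in WT and 58.6 and 58.2 CPM in YAP1 heterozygote marrow. The groups did not overlap, and 11.3% of 15592 genes had both YAP1 heterozygote libraries above both WT libraries in the same way, from which nothing is read here. Mature neutrophil-like cells supplied 41.5%, 41.7%, 45.1% and 41.9% of the Slc40a1 UMIs and neutrophil precursor-like cells 32.5%, 27.9%, 27.1% and 28.6%. Macrophage-like cells, with the highest level, supplied 3.68%, 2.48%, 3.65% and 7.13%. Of the all-cell level, the mature neutrophil-like contribution was 20.9 and 20.8 CPM in WT and 26.4 and 24.4 CPM in YAP1 heterozygote marrow, and the macrophage-like contribution was 1.85, 1.24, 2.14 and 4.15 CPM. With every class given the same share in each library, Slc40a1 was 53.1 and 51.6 CPM against 57.2 and 56.8 CPM. Without macrophage-like cells it was 48.5 and 48.7 CPM against 56.6 and 54.4 CPM. The difference of group means was 8.29 CPM as measured, 6.88 CPM without macrophage-like cells and 4.63 CPM with equal class shares. These are the values that chose the genes, in another weighting, and support nothing further.

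**Figure D4:**
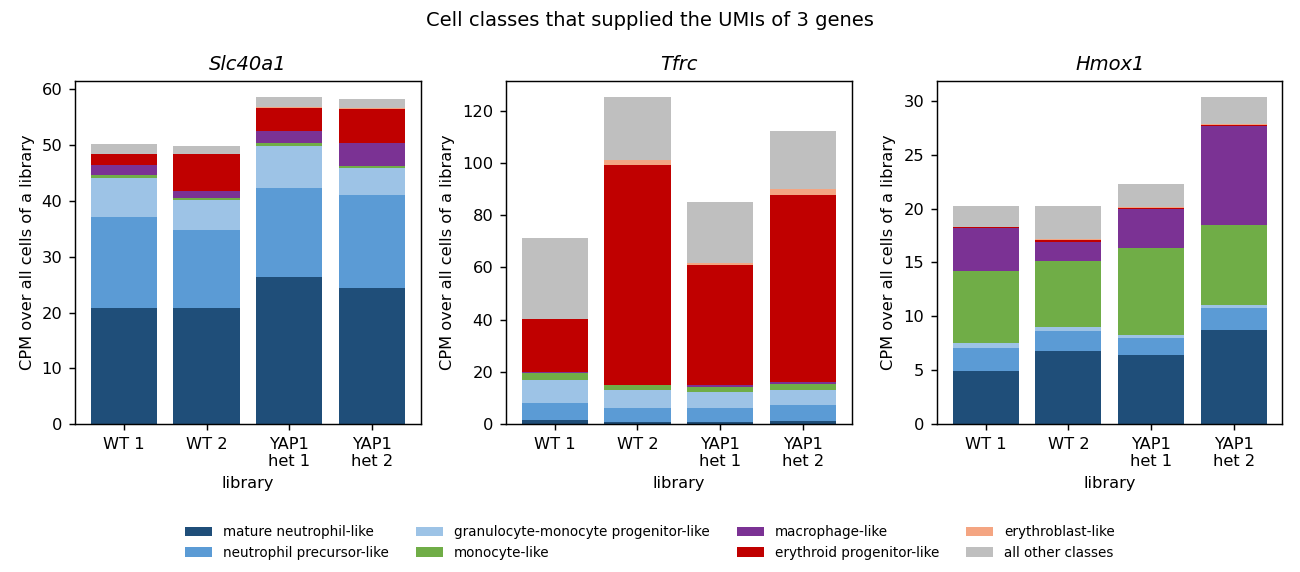
Stacked bars of the CPM that each cell class supplied to the level of Slc40a1, Tfrc and Hmox1 over all cells of a library. Neutrophil classes supply most Slc40a1, erythroid progenitor-like cells supply from 28.3% to 67.1% of Tfrc, and macrophage-like cells supply 30.2% of Hmox1 in YAP1 heterozygote replicate 2.

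Over all cells most of the other members had the same order of libraries as the erythroid share. Tfrc was 71.3 CPM in WT replicate 1, 125 in WT replicate 2, 85.0 in YAP1 heterozygote replicate 1 and 112 in YAP1 heterozygote replicate 2. The 2 genotypes overlapped. The same order of libraries held for 6 members, namely Tfrc, Fth1, Ftl1, Slc11a2, Slc25a37 and Steap3, and was the order of the erythroid progenitor-like share of UMIs (3.29%, 12.7%, 7.92% and 11.1%). The share of all genes with that order was not counted. Libraries with the same replicate number deviated together over 7651 genes (correlation 0.73). This order also put both Ddx3y libraries below both Xist libraries. The part of the erythroid share or of sex in the order was not tested. Erythroid progenitor-like cells supplied 46.5%, 80.7%, 74.0% and 77.1% of the Steap3 UMIs. With equal class shares Tfrc was 103, 100.5, 91.1 and 97.6 CPM in WT replicates 1 and 2 and YAP1 heterozygote replicates 1 and 2, no longer in that order. Ftl1 kept the order, at 1442, 1770, 1595 and 1692 CPM, and Fth1 kept a wide spread, at 2334, 2700, 2237 and 2545 CPM. Hmox1 was 20.2 CPM in each WT library and 22.3 and 30.3 CPM in the YAP1 heterozygote libraries, and Slc11a1 was 19.8 and 18.4 against 17.6 and 17.5 CPM. Each was 1 of 8 members without overlap, beside 11.3% of all genes above and 14.9% below. Macrophage-like cells supplied 19.99%, 8.55%, 16.3% and 30.2% of the Hmox1 UMIs.

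The share of macrophage-like cells was 0.535% and 0.484% in WT and 0.956% and 1.40% in YAP1 heterozygote marrow. Both YAP1 heterozygote values lay above both WT values, with Wilson 95% intervals of 0.421% to 0.678% and 0.372% to 0.629% against 0.787% to 1.16% and 1.21% to 1.61%, which cover counting error only. The log2 fold change was 1.21 (SE 0.27), and edgeR's quasi-likelihood test over classes did not call it (adjusted p = 0.230). DESeq2 did (adjusted p = 0.0439). An exact two-sided permutation test gave p = 0.333, the smallest that 2 libraries against 2 allow. Erythroid progenitor-like shares were 1.15%, 3.88%, 2.20% and 3.46%, with the WT libraries at both ends (edgeR adjusted p = 0.934).

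Within erythroid progenitor-like cells, no iron gene was called between the genotypes by edgeR's quasi-likelihood test. Of 8 members tested, Slc40a1 left out, 0 were called with Benjamini-Hochberg adjustment, 0 had an unadjusted p under 0.05 and DESeq2 called 0. The background was 0% (0 of 10641 genes; 356 at an unadjusted p under 0.05; 5 by DESeq2). Tfrc was 612 and 663 CPM against 581 and 648 CPM (log2 fold change -0.04, SE 0.12). Slc25a37 was 291 and 283 CPM against 224 and 273 CPM, with a log2 fold change of -0.20 (SE 0.13), and its groups did not overlap. Without YAP1 heterozygote replicate 1 the log2 fold change was -0.025, and without YAP1 heterozygote replicate 2 it was -0.40. The groups of Hmox1 did not overlap either, at 1.67 CPM in both WT libraries against 1.31 and 1.14 CPM. Thus 2 of 8 members had both YAP1 heterozygote libraries below both WT libraries, beside 15.4% of all genes, and 0 of 8 had them above, beside 15.2%. The median log2 fold change of the 8 members was -0.06, beside 0.01 over all genes tested. Slc40a1 was 56.8 and 51.1 CPM against 53.7 and 53.9 CPM.

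Erythroblast-like cells were not tested, since WT replicate 1 held 14 of them. Both YAP1 heterozygote libraries lay below both WT libraries for 5 of 8 members, namely Slc25a37, Tfrc, Fth1, Hmox1 and Slc11a2. Of these 5, Hmox1 rests on 30 UMIs over the 4 libraries and Slc11a2 on 13. Both YAP1 heterozygote libraries lay above for 1 member, Steap3, which had at most 2 UMIs in a library. Among the 1762 genes of this class that passed the filter on low counts, the shares were 16.7% below and 6.36% above. The 8 members were taken without that filter, so their counts and these shares are not directly comparable. Tfrc was 526 and 645 CPM against 325 and 360 CPM, and Fth1 was 1948 and 1377 CPM against 1250 and 1293 CPM. Mature neutrophil markers made up 10.8% and 4.26% of these cells' UMIs in WT and 10.2% and 7.53% in YAP1 heterozygote marrow, and their part in these levels was not tested.

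Macrophage-like cells showed wide spread between the WT libraries. Of 6 members tested, edgeR called 0, 0 had an unadjusted p under 0.05 and DESeq2 called 0, and the background was 0% (0 of 3908 genes; 199 at an unadjusted p under 0.05; 5 by DESeq2). Slc11a2 and Steap3 did not pass the filter on low counts. Hmox1 had a log2 fold change of -0.48 (SE 0.42), Ftl1 of -0.35 (SE 0.32) and Fth1 of -0.27 (SE 0.29), and the groups of all 3 overlapped. These values turned on single WT libraries. Without WT replicate 1 the log2 fold change was -0.50 for Fth1, -0.64 for Ftl1 and 0.29 for Hmox1. Without WT replicate 2 it was -0.95 for Hmox1. Such a fit assumes that the lone WT library varies like the other group, so only the effect sizes are given. Slc25a37 was 28.7 and 36.3 CPM against 76.4 and 48.0 CPM (log2 fold change 0.90, SE 0.46, edgeR adjusted p = 0.932). Erythroblast markers, given above, moved the same way, and their part in this difference was not tested. With Slc25a37 above and Slc11a1 below, 1 of 6 members fell on each side without overlap, beside 14.5% and 20.2% of all genes. Slc40a1 had a log2 difference of -0.56 (SE 0.28), which was -0.20 without WT replicate 1 and -0.80 without WT replicate 2.

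In neutrophil precursor-like cells 6 members were tested and edgeR called 0, with 0 at an unadjusted p under 0.05 and 0 by DESeq2, beside a background of 0% (0 of 10826 genes; 560 at an unadjusted p under 0.05; 12 by DESeq2). All 6 fitted log2 fold changes were below 0, with Ftl1 at -0.004, and the share of all genes below 0 was not counted. Their median was -0.11 beside 0.01 over all genes. Leaving out a library gave the other sign for Ftl1, Hmox1, Slc25a37 and Tfrc. Classes from markers per cell did so for Ftl1, Hmox1, Slc11a1 and Slc25a37, with values at the end. Fth1 was 662 and 629 CPM against 535 and 583 CPM (log2 fold change -0.18, SE 0.11), and Slc11a1 was 3.99 and 3.56 CPM against 2.86 and 3.14 CPM (-0.30, SE 0.18). These 2 of 6 members lay below without overlap, beside 16.7% of all genes, and 0 of 6 lay above, beside 12.1%. Slc40a1 was 78.0 and 73.8 CPM against 73.9 and 79.6 CPM.

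Mature neutrophil-like cells held 2267 to 2795 Slc40a1 UMIs per library. Slc40a1 was 112 and 118 CPM in WT and 145 and 142 CPM in YAP1 heterozygote marrow, a log2 difference of 0.345 (SE 0.11). With equal cluster shares it was 119 and 118 CPM against 144 CPM in both, and without cluster 2 it was 120 and 118 CPM against 145 and 141 CPM. Both YAP1 heterozygote libraries lay above both WT libraries in 5 of 6 clusters, not in cluster 0, which gave 243 and 195 CPM against 262 and 241 CPM. The share of all genes with that pattern was 12.6% in the class, and 12.2%, 13%, 13.6%, 24.1%, 15.5% and 12.2% in clusters 17, 14, 8, 2, 1 and 0. Slc40a1 was chosen on a value of these same libraries and clusters are not replicates, so its values here support nothing further. Of 6 other members tested, edgeR called 0, 0 had an unadjusted p under 0.05 and DESeq2 called 0, beside a background of 0.00976% (1 of 10251 genes; 546 at an unadjusted p under 0.05; 17 by DESeq2). Hmox1 was 26.3 and 38.4 CPM against 35.0 and 50.6 CPM (log2 fold change 0.42, SE 0.25, edgeR adjusted p = 0.982), and the groups overlapped. Without WT replicate 2 the log2 fold change of Hmox1 was 0.79. With the replicate number as a block, which here also separates the Ddx3y and Xist libraries, Hmox1 was called (log2 fold change 0.43, edgeR adjusted p = 0.0366). That block also called many other genes of this class, where the fit without it called 1 of 10251, so the call was not particular to Hmox1. The number is given at the end. Slc11a1 was 67.3 and 61.0 CPM against 55.8 and 53.5 CPM (-0.20, SE 0.12), without overlap, and Slc25a37 was 52.9 and 50.7 CPM against 53.0 and 54.8 CPM (0.09, SE 0.12), also without overlap. With equal cluster shares Slc25a37 did overlap, at 54.1 and 50.5 against 53.6 and 52.7 CPM. Slc11a1 and Slc25a37 are each 1 of 6 members, beside 18.4% of genes below and 12.6% above.

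**Figure D5:**
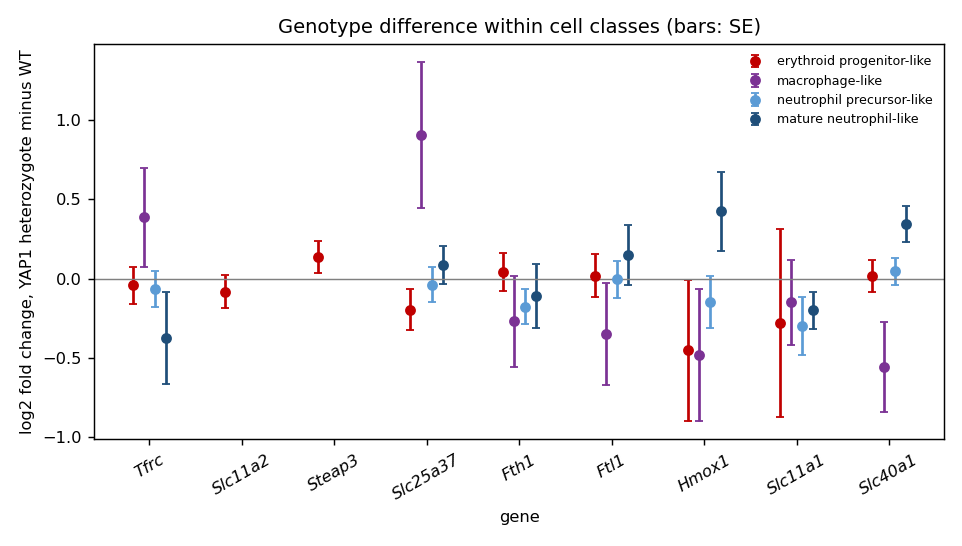
Log2 fold change of each tested gene, YAP1 heterozygote minus WT, in 4 cell classes, with bars for the standard error of the edgeR fit. The widest bar is that of Slc11a1 in erythroid progenitor-like cells (SE 0.59). Slc40a1 lies at -0.56 in macrophage-like cells and at 0.345 in mature neutrophil-like cells.

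The same fit in all 17 classes with at least 20 cells in each library gave 101 tests of the 8 members. EdgeR called 0 of them and DESeq2 called 0, and 5 had an unadjusted p under 0.05, beside 70 called and 7214 of 154071 at an unadjusted p under 0.05 over all genes. The share of all genes called was 0.423% in T cell-like, 0.242% in plasma cell-like, 0.103% in NK or ILC-like, 0.0641% in B precursor-like, 0.0545% in basophil or mast-like, 0.0103% in megakaryocyte-like, 0.00976% in mature neutrophil-like and 0.00862% in HSPC-like cells (hematopoietic stem and progenitor cells), and 0% in the other 9 classes. The 5 were Ftl1 and Fth1 in basophil or mast-like cells (log2 fold changes -0.45 and -0.35), Slc11a2 in granulocyte-monocyte progenitor-like cells (-0.49), Hmox1 in monocyte-like cells (0.29) and Slc25a37 in nonclassical monocyte-like cells (0.83).

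The wider list held 50 other iron genes, all present in the tables. EdgeR called 0 of them in either direction in every class, over 478 tests with 29 at an unadjusted p under 0.05. DESeq2 called 2, Ltf and Lcn2 in B cell-like cells (edgeR log2 fold changes -0.90 and -0.75). It called 23 of all genes in that class and 189 over all classes. Both encode proteins of neutrophil granules, and the part of neutrophil transcripts in this difference was not tested. In erythroid progenitor-like cells 33 of the 50 were tested, 19 with a log2 fold change above 0 and 14 below. Their median was 0.02 beside 0.01 over all genes. The highest there were Blvrb, a biliverdin reductase, at 1568 ± 237 CPM, Glrx5, which serves iron-sulfur cluster assembly, at 838 ± 48.7 CPM, and Pcbp2, an iron chaperone, at 437 ± 23.3 CPM (SD, n = 4). In macrophage-like cells 21 were tested, 12 above 0 and 9 below, with a median of 0.08 beside 0.0014 over all genes. Lcn2 and Ltf, the siderophore binder and the iron-binding protein of neutrophil granules, led there at 5472 ± 1626 and 4092 ± 1220 CPM, followed by Trf, transferrin itself, at 759 ± 76.3 CPM (SD, n = 4). In mature neutrophil-like cells 29 were tested, 17 above 0 and 12 below, with a median of 0.05 beside -0.0022 over all genes, and Lcn2, Ltf and Hp, haptoglobin, led at 12428 ± 1321, 6487 ± 566 and 2181 ± 278 CPM (SD, n = 4). Every macrophage-like value of Lcn2 and Ltf lay below every mature neutrophil-like value, and the share of mature neutrophil markers in macrophage-like cells is given above.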

How the data were processed

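The authors deposited, for each of the 4 libraries, whole-number UMI counts per gene and barcode with no normalization. Cell Ranger 5.0.0 is named per the file headers. The submitters' processing notes instead give version 3.0.0 of it, together with Seurat 4.3.0, GRCm38 and mm10. Barcodes under 500 UMIs, under 200 genes or over 10% mitochondrial UMIs were dropped, and doublets were removed with Scrublet in scanpy 1.11.5, which marked 3.42% to 4.39% of a library. Leiden clustering (2000 variable genes, 30 components, 15 neighbours, resolution 1.0) gave 31 clusters, named from marker lists as "-like" classes; 1 cluster with more markers of another list stayed unnamed. The members, marker lists, the list of 50 other iron genes and the tests were chosen with earlier results of these data known. Named genes were the members, per class the 3 other iron genes with the highest mean CPM, and per member the 3 genes with the highest correlation over class sums (at least 10 CPM in 1 class).

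UMI counts were summed per class and library and tested with edgeR 4.0.16 (quasi-likelihood test, filterByExpr, TMM, Benjamini-Hochberg adjustment over all genes of a class, threshold 0.05), with DESeq2 1.42.0 beside it. The labels do not say whether replicates are separate mice, but by Ddx3y and Xist the libraries of 1 genotype did not share a mouse. The p-values measure the spread between libraries, sexes included. CPM use the UMIs of the class as total, with a pseudocount of 1 where logged. Shares of cells carry 95% Wilson intervals, for counting error alone. The test was checked on simulated data. In macrophage-like cells it recovered 17% of 2-fold and 79% of 4-fold changes, with 4 false calls. In erythroid progenitor-like cells it recovered 71% and 94%, and in mature neutrophil-like cells 66% and 96%, with 8 false calls in each. The simulation changed 100 genes at each fold, which eases the adjusted threshold, so recovery in the real data can be lower. A lack of calls therefore does not show a lack of change in any class, least of all in macrophage-like cells. Alternatives were the tool, scaling, filter, a replicate block, leaving out each library, doublets, classes from markers per cell, and thinning.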

Additional observations from a re-analysis of the deposited data

Results flagged for a closer look

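For Slc40a1, both YAP1 heterozygote libraries lay above both WT libraries in mature neutrophil-like cells (log2 difference 0.345), as did 12.6% of all genes there, and below both in macrophage-like cells (-0.56), as did 20.2%. Leaving out 1 library gave -0.80 to -0.20 for the second value. For Slc25a37, both YAP1 heterozygote libraries lay above both WT libraries in macrophage-like cells (log2 fold change 0.90), as did 14.5% of all genes, and in mature neutrophil-like cells (0.087), as did 12.6%. They lay below both in erythroid progenitor-like cells (-0.20), as did 15.4%. Equal cluster shares ended the separation in mature neutrophil-like cells, and leaving out 1 library gave -0.40 to -0.025 in erythroid progenitor-like cells. Slc40a1 was chosen on a value of these same libraries, so its separations are a description. The differences between classes were not tested. Groups of 2 libraries are too small for a check of single libraries that stand apart.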

How the results depend on the processing

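With 2 libraries a group, single libraries set the calls. No member was called in erythroid progenitor-like or neutrophil precursor-like cells under any alternative run. In macrophage-like and mature neutrophil-like cells, members were called in some fits that left out a library. Such a fit assumes that the lone library of a group varies like the other group, so those calls are not counted. Libraries with the same replicate number deviated together (correlation 0.73 over all cells, 0.04 in macrophage-like, 0.60 in mature neutrophil-like cells), but the labels do not say that the number pairs them. With the replicate block, edgeR called 1 member, Hmox1 in mature neutrophil-like cells (log2 fold change 0.43, adjusted p = 0.0366). Over all genes that block called 8 of 10641, 22 of 3908, 251 of 10826 and 205 of 10251 in erythroid progenitor-like, macrophage-like, neutrophil precursor-like and mature neutrophil-like cells. In the same order of classes, DESeq2 called 5, 5, 12 and 17 genes, and the fit without a filter on low counts called 136, 36, 116 and 70. Leaving out each library, with the lone library of a group assumed to vary like the other group, gave 0 to 286, 15 to 155, 9 to 450 and 13 to 348. In mature neutrophil-like cells the call of 1 gene became 2 with DESeq2 size factors and 0 with doublets kept or classes from markers per cell; that class rule gave 1 gene in erythroid progenitor-like cells, and macrophage-like cells with S100a8 and S100a9 under 2% of UMIs gave 6. The causes were not tested.

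The difference of Slc40a1 over all cells, 8.29 CPM, was 7.97 with all deposited barcodes, 9.93 with totals without hemoglobin genes, S100a8 and S100a9, 4.63 with equal class shares, 6.88 without macrophage-like cells, 7.34 without macrophage-like and erythroid cells, and 8.09 to 8.49 leaving out each library; equal class shares, the runs without classes, equal cluster shares, the run without cluster 2 and thinning to 1000 UMIs were chosen after seeing the data. As a mean over cells of each cell's CPM, levels in the leading class were 1447 for Slc40a1, 767 for Tfrc, 14090 for Fth1, 9267 for Ftl1, 2723 for Hmox1, 161 for Slc11a1, 1936 for Slc25a37 and 87.2 for Steap3; with classes from markers per cell they were 416 for Tfrc and 237 for Slc11a1. The log2 fold change of the macrophage-like share passed the threshold with DESeq2 (1.21), was 1.19 with the replicate block (adjusted p = 0.321), 0.86 with classes from markers per cell, and 0.91 to 1.46 leaving out each library; the erythroid progenitor-like and erythroblast-like shares ranged from -0.46 to 1.30 and from -0.10 to 2.47.

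Some fold changes took the other sign. Leaving out each library gave, in erythroid progenitor-like cells, -0.11 to 0.21 for Fth1, -0.16 to 0.22 for Ftl1, -0.80 to 0.088 for Slc11a1 and -0.17 to 0.071 for Tfrc; in macrophage-like cells, -0.50 to 0.076 for Fth1, -0.64 to 0.094 for Ftl1 and -0.95 to 0.29 for Hmox1; in mature neutrophil-like cells, -0.34 to 0.094 for Fth1 and -0.076 to 0.41 for Ftl1; and in neutrophil precursor-like cells, -0.12 to 0.12 for Ftl1, -0.42 to 0.083 for Hmox1, -0.10 to 0.014 for Slc25a37 and -0.20 to 0.052 for Tfrc. Classes from markers per cell gave 0.21 for Tfrc and 0.069 for Slc25a37 in erythroid progenitor-like cells, 0.17 for Slc11a1 in macrophage-like cells, and 0.021 for Ftl1, 0.12 for Hmox1, 0.031 for Slc11a1 and 0.080 for Slc25a37 in neutrophil precursor-like cells. Ftl1 was at 0.00047 with the replicate block and Slc25a37 at 0.0096 with doublets kept in the last class, and Slc11a1 in macrophage-like cells at 0.00081 without the richest cell and 0.0066 with the S100 limit. Sums were small in macrophage-like cells, with 165220 to 687833 UMIs per library, and in erythroblast-like cells, with 70325 to 672642.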
